A study of Mus musculus with 10 samples.

Results

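Cyp26b1 and 6 other genes of the retinoic acid pathway, Rara, Rarb, Rarg, Rxra, Stra6 and Dhrs3, are described here in endothelial cells purified from mouse high-grade gliomas. They were taken by symbol, as 7 of the 23238 gene symbols shared by all count files, and Cyp26b1 was included because its level was lower in the deficient library of both Sox7 sets. That choice used the Sox7 comparison, so the Sox7 values of the 7 genes are given as a description, with no test. All 7 passed the filter on low counts and were among the 13040 genes tested.

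Per the series' design text, GL26l glioma cells were injected into the brains of mice on the C57BL/6 background. Sox7-deficient libraries (n = 2) came from tumours in which Sox7fl/fl had been excised by the Cdh5(BAC)-CreERT2 driver, and Sox7 control libraries (n = 2) were their counterparts. Sox17-deficient libraries (n = 3) came from the same driver with Sox17fl/fl, and Sox17 control libraries (n = 3) were the counterparts of these. Cdh5(BAC)-CreERT2 acts in endothelium once tamoxifen is given, and the text states 20 mg/kg for the experimental mice. Age, the alleles and Cre status of the controls, and whether the controls received tamoxifen are not given in the sources used here, so an effect of tamoxifen or recombinase cannot be told apart from that of the deletion. Libraries of the same number form a set, and the labels do not say that sets came from separate animals, so the errors measure the spread between these samples.

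Each library was a 3′ tag library (Lexogen QuantSeq), in which each polyadenylated transcript gives a tag near its 3′ end, so that its scaled counts (CPM) do not grow with transcript length and can be set side by side between genes. Total counts were between 2082305 and 35068802, and a floor of 3 counts corresponded to 0.0847 to 1.36 CPM. Sox7 was at 0.577 and 0.664 CPM in Sox7-deficient libraries, against 23.1 and 5.90 CPM in Sox7 controls, and Sox17 was at 1.07 to 6.70 CPM in Sox17-deficient libraries, against 90.1 to 174.3 CPM in Sox17 controls. The labels do not name the floxed exons, so a tag outside them would not check the deletion. All 10 endothelial markers were detected in every library, with a summed level of 6454 to 13049 CPM. Sox7-deficient 1 stood apart by its macrophage markers, whose 12 genes summed to 18954 CPM, against 1103 CPM in its control, while the other 8 libraries held 19.5 to 698.8 CPM.

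Retinoic acid is made from vitamin A and acts as a ligand of nuclear receptors. STRA6 is a membrane receptor that takes up retinol from its plasma carrier, retinol is oxidised to retinal and then to retinoic acid, and DHRS3 returns retinal to retinol. Enzymes of the CYP26 family hydroxylate retinoic acid and so end its action. Retinoic acid receptors (RARα, RARβ and RARγ) bind DNA as heterodimers with retinoid X receptors at direct repeats of a short half-site, and Cyp26, Rarb, Dhrs3 and Stra6 are known as genes that retinoic acid induces in many cells. In brain vessels retinoic acid is known for promoting barrier properties.

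The stretch upstream of Cyp26b1 is shown because this gene was chosen for its Sox7 values, and the direct repeats of its paralog Cyp26a1 and of Rarb are shown because they are the textbook form of a retinoic acid response element that the Cyp26b1 window did not hold. Sequences are from RefSeq on GRCm38.p6. For Cyp26b1 the 152 bases at chr6:84593909-84594060 (minus strand) that lie outside annotated exons are printed on the gene's strand, with a TATAAA motif in capitals. For the repeats, the half-sites are in capitals and the 5 bases between them in lower case.
Cyp26b1 upstream: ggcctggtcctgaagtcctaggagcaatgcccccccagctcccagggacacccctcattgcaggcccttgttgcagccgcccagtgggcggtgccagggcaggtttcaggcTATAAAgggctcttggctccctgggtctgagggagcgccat
Cyp26a1 repeat: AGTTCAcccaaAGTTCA
Rarb repeat: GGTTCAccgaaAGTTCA
The Cyp26a1 repeat (chr19:37697776-37697792, on the strand opposite to the gene) lies 32 to 16 bases upstream of the RefSeq start. The Rarb repeat (chr14:16575513-16575529, on the gene's strand) lies 53 to 37 bases upstream of the RefSeq start and inside an exon of a longer annotated Rarb transcript.

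Motifs were searched on both strands in the 250 bases upstream of each of 32851 RefSeq starts. The half-sites searched were AGGTCA and its variant AGTTCA, and also GGGTCA and its variant GGTTCA. At least 1 of them was in 38.6% of all windows, and a direct repeat of these with 5 bases between them, each unit of which also counts as a half-site, was in 0.0883%. TATAAA was in 12.4% of windows. The letters ACAAT and ACAAAG, cores of sites that Sox proteins bind, were in 27.7% and 16.5%. The Cyp26b1 window held none of these apart from TATAAA. Of the 17 windows of the 7 genes, some of which overlap, 4 held a half-site, 1 held the direct repeat (Rarb), 5 held ACAAT and 3 held ACAAAG. By gene, a half-site was in a window of 4 of the 7, ACAAT of 4 and ACAAAG of 2. These matches describe letters in a short window and say nothing of binding.

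Cyp26b1 (GRCm38 chromosome 6, 84571414 to 84593908, minus strand, protein-coding) encodes a retinoic acid hydroxylase. It had 186 and 231 counts in Sox7-deficient libraries 1 and 2, against 687 and 2194 counts in Sox7 controls 1 and 2. As CPM these were 26.8 and 30.7 in Sox7-deficient libraries, against 82.2 and 202.2 in Sox7 controls. The deficient libraries lay close together and below both controls, while the controls differed from each other by more than their lower value. The deficient level was 0.326 of control in set 1 and 0.152 of control in set 2. In the fit the log2 fold change was −2.31 (SE 0.68), and 5.34% of the genes tested had a lower one. Without Sox7 control 2 the log2 fold change was −1.52 (SE 0.82). Without Sox7-deficient 1, the library with many macrophage transcripts, it was −2.24 (SE 0.87).

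In these bulk samples fewer cells that express a gene and less RNA per cell cannot be told apart. Summed endothelial markers were 0.572 of control in Sox7 set 1 and 1.00 of control in set 2. Per 1000 CPM of endothelial markers, Cyp26b1 was at 4.16 and 3.26 CPM in Sox7-deficient libraries, against 7.29 and 21.5 CPM in Sox7 controls. The 6 arterial markers summed to 67.5 and 89.2 CPM in Sox7-deficient libraries at the lowest and highest, against 166.9 and 229.0 CPM in Sox7 controls, with at most 2 of them at 0 in a library. They were at 0.295 and 0.534 of control in Sox7 sets 1 and 2. The 5 venous markers, none at 0, were at 0.608 and 0.641 of control. In Sox17 sets 1, 2 and 3 the arterial markers were also below control, at 0.527, 0.345 and 0.777 of it. The venous markers there were at 2.48, 1.70 and 1.11 of control, and Cyp26b1 was at 0.796, 1.06 and 0.749. The part of endothelial, arterial and venous content in the Cyp26b1 values was not tested.

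After Sox17 deletion Cyp26b1 did not pass the test. It was at 17.3, 53.0 and 27.5 CPM in Sox17-deficient libraries 1, 2 and 3, against 21.8, 50.1 and 36.8 CPM in the Sox17 controls of the same sets. The groups overlapped, and set 2 was the highest and set 1 the lowest in both. The log2 fold change was −0.15 (SE 0.53; edgeR quasi-likelihood test, adjusted p = 1). The Sox7 difference minus the Sox17 difference was −2.15 (SE 0.84), given as a value only since the Sox7 comparison chose the gene.

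Across the 4 groups Cyp26b1 averaged 28.8 ± 2.70 CPM in Sox7-deficient libraries and 142 ± 84.8 CPM in Sox7 controls (SD, n = 2 each), and 32.6 ± 18.4 CPM in Sox17-deficient libraries and 36.2 ± 14.2 CPM in Sox17 controls (SD, n = 3 each). The Sox7-deficient value lay within the range of the 6 Sox17-arm libraries, 17.3 to 53.0 CPM. The Sox7 controls were the highest 2 of the 10 libraries. The other 3 group means differed by less than the SD of either Sox17 group. The arms share none of the number labels in the sample descriptions, so a difference in level between arms cannot be told apart from one between those labels.

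**Figure D1:**
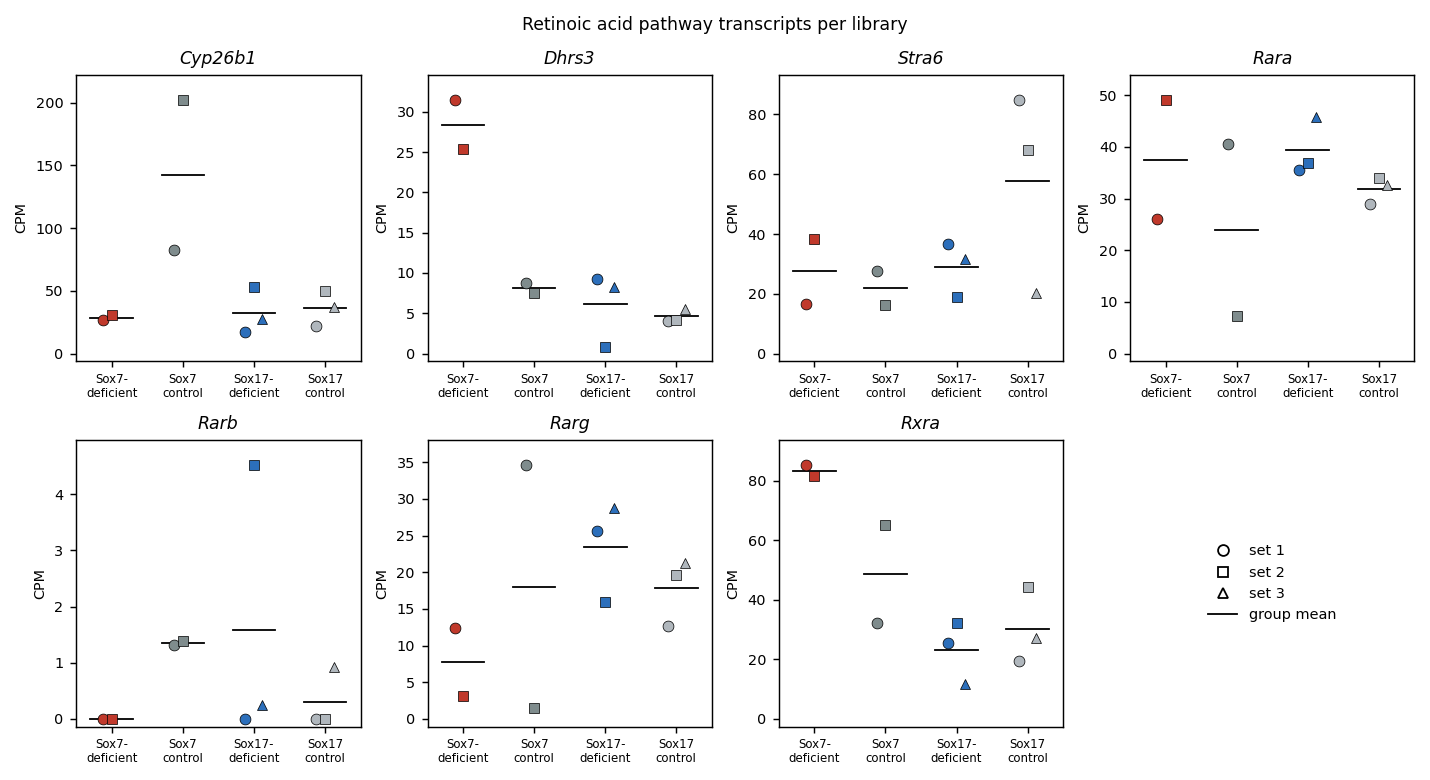
CPM of the 7 genes in the 10 libraries, by group on the x axis, each point a library with its set number as the marker and the bar the group mean. Cyp26b1 stands at 82.2 and 202.2 CPM in Sox7 controls, above every other library, and Dhrs3 at 25.3 and 31.5 CPM in Sox7-deficient libraries, also above every other library.

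Cyp26b1 was nearly the whole of the CYP26 signal. It made up 93.2% of the summed Cyp26a1, Cyp26b1 and Cyp26c1 level in Sox17 control 2 and between 99.9% and 100% in the other 9 libraries. Cyp26c1 had no count in any library. Cyp26a1 had 47 counts in 2 libraries and was not tested.

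Dhrs3 (chromosome 4, 144892827 to 144928209, plus strand, protein-coding) encodes the reductase that turns retinal back into retinol. It was at 31.5 and 25.3 CPM in Sox7-deficient libraries 1 and 2, against 8.74 and 7.56 CPM in Sox7 controls. Both deficient libraries lay above both controls, by 3.60-fold in set 1 and 3.35-fold in set 2, and above all 6 Sox17-arm libraries as well. The log2 fold change was 1.80 (SE 1.51), with a range of 1.61 to 1.95 when each library was left out in turn. Summed macrophage markers were at 18954 and 141.7 CPM in Sox7-deficient libraries 1 and 2, against 1103 and 387.8 CPM in Sox7 controls, and their part in the Dhrs3 values was not tested. Per 1000 CPM of endothelial markers Dhrs3 was at 4.87 and 2.69 CPM in Sox7-deficient libraries, against 0.775 and 0.803 CPM in Sox7 controls. In the Sox17 arm Dhrs3 was at 9.22, 0.847 and 8.31 CPM in Sox17-deficient libraries 1, 2 and 3, against 4.08, 4.19 and 5.57 CPM in the controls. It was thus higher in sets 1 and 3 and lower in set 2, and the log2 fold change of 0.40 (SE 1.21; edgeR adjusted p = 1) did not pass the test. That value was −0.11 with the replicate block and −1.40 with limma-voom, so its sign differed between fits.

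Stra6 (chromosome 9, 58063788 to 58153996, plus strand, protein-coding) encodes the retinol uptake receptor. It went opposite ways in the Sox7 sets, with 16.7 and 38.4 CPM in Sox7-deficient libraries 1 and 2, against 27.5 and 16.4 CPM in Sox7 controls (log2 fold change 0.33, SE 0.74). In the Sox17 arm it was at 36.6, 18.9 and 31.6 CPM in Sox17-deficient libraries, against 84.9, 68.1 and 20.1 CPM in Sox17 controls. The deficient libraries of sets 1 and 2 were at 0.431 and 0.278 of control, and that of set 3 was at 1.57 times control. The log2 fold change was −0.99 (SE 0.61), and it did not pass the test (edgeR adjusted p = 1). The 10 pericyte and smooth muscle markers summed to 294.7 to 322.2 CPM in Sox17-deficient libraries and 302.0 to 1311 CPM in Sox17 controls, with at most 1 of them, Cnn1, at 0. They were at 0.225, 0.438 and 1.07 of control in Sox17 sets 1, 2 and 3. In Sox7 sets 1 and 2 they were at 0.828 and 1.99 of control, the same direction as Stra6 in all 5 sets. This was 1 of 8 marker lists. The astrocyte and glioma markers shared the direction of Stra6 in all sets but Sox17 set 3, at 0.789 of control. The fibroblast markers did so in all but Sox17 set 1, at 1.36 times control. The part of these markers in the Stra6 values was not tested.

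Rara (chromosome 11, 98927818 to 98974942, plus strand, protein-coding) encodes RARα and was the most abundant retinoic acid receptor transcript in all 10 libraries, with 53.1% to 93.9% of the summed level. In Sox17-deficient libraries 1, 2 and 3 it was at 35.6, 36.8 and 45.8 CPM, against 29.0, 34.1 and 32.7 CPM in Sox17 controls. All 3 deficient libraries lay above all 3 controls, by 1.23-, 1.08- and 1.40-fold within sets. The log2 fold change was 0.30 (SE 0.61), and it did not pass the test (edgeR adjusted p = 1). Of all genes tested, 4.13% had deficient libraries all above the controls in this arm and 4.23% all below, and Rara was the only one of the 7 in either class. In the Sox7 arm Rara was at 26.0 and 49.1 CPM in Sox7-deficient libraries, against 40.6 and 7.28 CPM in Sox7 controls, so that set 1 was at 0.640 and set 2 at 6.74 times control.

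Rarg (chromosome 15, 102234938 to 102257517, minus strand, protein-coding) encodes RARγ. It was at 12.4 and 3.19 CPM in Sox7-deficient libraries, against 34.6 and 1.47 CPM in Sox7 controls (log2 fold change −1.21, SE 1.22). The sets again went opposite ways, and without Sox7 control 1 the log2 fold change was 2.37. In the Sox17 arm Rarg was at 25.6, 15.9 and 28.8 CPM in Sox17-deficient libraries, against 12.7, 19.7 and 21.3 CPM in Sox17 controls, with overlapping groups (log2 fold change 0.38, SE 0.98; edgeR adjusted p = 1).

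Sox7 control 2 had the lowest level of both Rara and Rarg. The 3 retinoic acid receptors summed to 10.1 CPM there, against 38.4 to 76.5 CPM in the other 9 libraries. Retinoid X receptor transcripts were not low in the same library, at 136.4 CPM summed, within the 40.4 to 158.9 CPM of the other 9. Cyp26b1, at 202.2 CPM, was at its highest there.

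Rarb (chromosome 14, 16430839 to 16819156, minus strand, protein-coding) encodes RARβ and was near the limit of detection. It had 0 counts in both Sox7-deficient libraries, against 11 and 15 counts in Sox7 controls. The floor of 3 counts per deficient library was 0.416 CPM on average, against 1.35 ± 0.0465 CPM in controls (SD, n = 2). By that floor, which covers counting error of the 0 counts and not the spread between samples, Rarb was at least 3.25-fold lower. In the Sox17 arm it had 0, 160 and 2 counts in Sox17-deficient libraries 1, 2 and 3, against 0, 0 and 15 counts in Sox17 controls. One library held nearly all of it, at 4.52 CPM in Sox17-deficient 2, and the log2 fold change of 2.23 (SE 2.76; edgeR adjusted p = 1) turned to −1.32 without that library. Rarb shares 1793 exonic bases with Top2b, which runs on the opposite strand, and 227 with an antisense gene. The counting's strand setting is not given in the sources used here, so reads of these genes may not be told apart. Top2b had 197 and 264 CPM in Sox7-deficient libraries, against 277 and 306 CPM in Sox7 controls, lower in both sets as Rarb was. It had 235 to 305 CPM in Sox17-deficient libraries and 227 to 279 CPM in Sox17 controls. Rarb was at 0 in Sox7-deficient 1 and 2, Sox17-deficient 1 and Sox17 controls 1 and 2. Top2b had 1368, 1992, 1710, 547 and 2877 counts in these libraries. The part of Top2b reads in the Rarb values was not tested.

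Rxra (chromosome 2, 27676440 to 27762957, plus strand, protein-coding) encodes RXRα, the partner of the retinoic acid receptors. It was at 85.3 and 81.6 CPM in Sox7-deficient libraries 1 and 2, against 32.1 and 65.1 CPM in Sox7 controls. Both deficient libraries lay above both controls, by 2.66-fold in set 1 and 1.25-fold in set 2 (log2 fold change 0.78, SE 0.66). In the Sox17 arm Rxra was at 25.6, 32.3 and 11.9 CPM in Sox17-deficient libraries, against 19.5, 44.3 and 27.1 CPM in Sox17 controls, with overlapping groups (log2 fold change −0.38, SE 0.54; edgeR adjusted p = 1). Rxra made up 53.7% and 55.7% of retinoid X receptor transcripts in Sox7-deficient libraries, against 26.3% and 47.7% in Sox7 controls. Its share was 33.6%, 36.8% and 10.2% in Sox17-deficient libraries, against 48.3%, 48.1% and 31.3% in Sox17 controls. Most of the remainder was Rxrb.

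**Figure D2:**
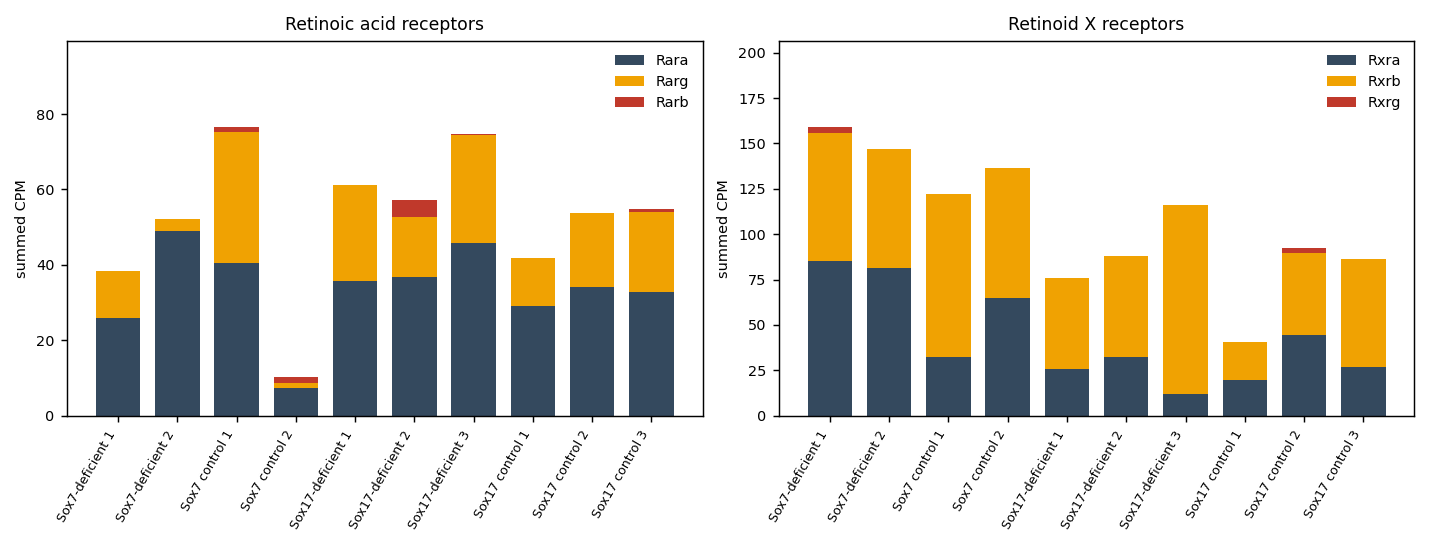
Summed CPM of the retinoic acid receptors (left) and retinoid X receptors (right) in each library, stacked by gene. The retinoic acid receptors sum to 10.1 CPM in Sox7 control 2 and to 38.4 CPM or more in the other libraries, and Rxra forms 53.7% and 55.7% of the right-hand bars of the Sox7-deficient libraries.

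Read together by set, 4 of the 7 genes had the same direction in both Sox7 sets. Cyp26b1 and Rarb were lower, and 22.5% of the 13040 genes tested were lower in both sets. Rxra and Dhrs3 were higher, as were 22.3% of genes. The same 4 had groups that did not overlap, which held for 12.8% of genes below and 12.7% above the controls. Since the choice of Cyp26b1 used this contrast, nothing is read from these counts. Cyp26b1, Rarb, Dhrs3 and Stra6 share induction by retinoic acid in many cells, and in the Sox7 arm the first pair was lower, Dhrs3 higher and Stra6 different between sets. In the Sox17 arm only Rara had 1 direction in all 3 sets, and of all genes 13.1% were higher and 11.5% lower in all 3. The median log2 fold change of the 7 was 0.33 in the Sox7 comparison, also with Rarb at its bound, against 0.04 for all genes, and 0.30 in the Sox17 comparison, against 0.05 for all genes.

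**Figure D3:**
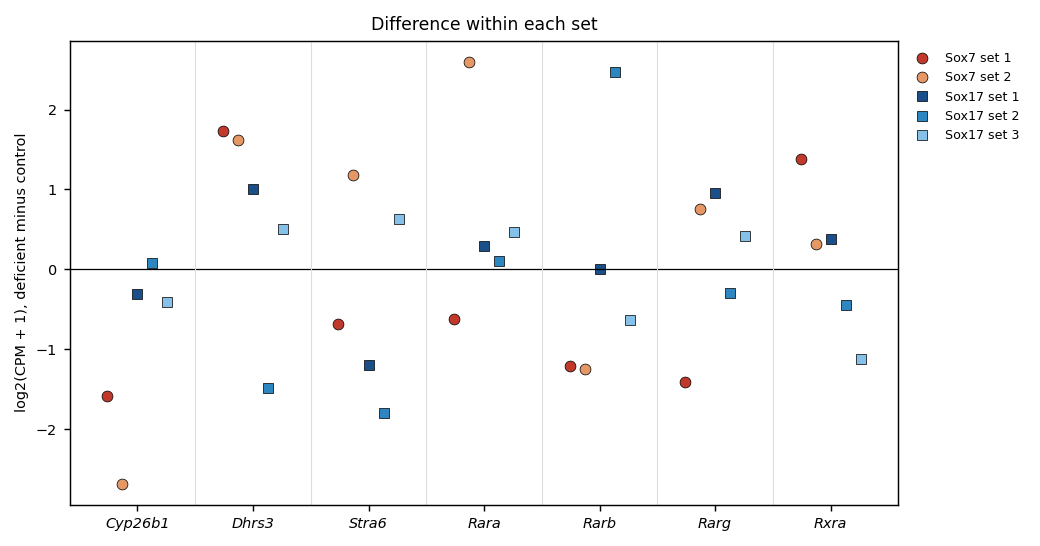
Difference in log2(CPM + 1) between the deficient and the control library of each set, for the 7 genes on the x axis, with circles for Sox7 sets and squares for Sox17 sets. Cyp26b1 and Rarb lie below 0 and Dhrs3 and Rxra above 0 in both Sox7 sets, and Rara alone lies above 0 in all 3 Sox17 sets.

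In the Sox17 comparison none of the 7 genes passed the threshold with edgeR, DESeq2 or limma-voom, and none had an unadjusted edgeR p under 0.05. The 7 genes were chosen with earlier results of these data known, so the Sox17 test is not independent of that choice. No gene of the 13040 passed with edgeR in either comparison (0%), while 1.5% in the Sox7 and 3.52% in the Sox17 comparison had an unadjusted p under 0.05. The deleted genes were themselves short of the threshold. Sox17 had a log2 fold change of −5.24 (SE 0.81; edgeR adjusted p = 0.226) in the Sox17 comparison. Sox7 had one of −4.52 (SE 1.04) in the Sox7 comparison. A gene that did not pass may therefore still have changed. With the replicate block 1 gene passed in the Sox7 and 6 in the Sox17 comparison, with DESeq2 3 and 29, and with limma-voom 0 in both. Those of the Sox17 comparison included none of the 7. The common biological coefficient of variation across genes was 0.989. DESeq2 gave no adjusted p for Rarb.

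Of 55 other retinoid pathway genes, 33 passed the filter on low counts and 0 of 33 passed the test in either comparison with edgeR, DESeq2 or limma-voom. At an unadjusted edgeR p under 0.05 there was 1 in the Sox7 comparison (Lrp1) and 0 in the Sox17 comparison. Without the filter 1 passed in the Sox7 comparison, Fabp5, among 58 of 17148 genes in that setting. In the Sox7 comparison 12 of the 33 had a log2 fold change below 0, against 47.5% of all genes, with a median of 0.26. In the Sox17 comparison 19 of the 33 did, against 47.1% of all genes, with a median of −0.24.

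Of all symbols 56.1% passed the filter on low counts. Of 10 genes for retinoic acid synthesis 3 passed it (Rdh10, Rdh11 and Aldh1a1). Their log2 fold changes were above 0 for 3 in the Sox7 and 1 in the Sox17 comparison. Of genes for retinoid uptake and binding 9 of 13 passed it, with 6 above 0 in the Sox7 and 3 in the Sox17 comparison. Of genes for retinal reduction and storage 4 of 5 passed it, Dhrs3 among them. Of these, 4 were above 0 in the Sox7 and 3 in the Sox17 comparison. All 11 receptor cofactor genes passed it, with 6 below 0 in the Sox7 and 8 below 0 in the Sox17 comparison. Of 23 genes listed as retinoic acid targets 12 passed it, with 6 and 4 below 0.

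Among the other genes with the smallest p and 1 direction in both Sox7 sets, Lrp1, an endocytic receptor that also takes up retinoid-bearing remnants, was at 368 and 66.4 CPM in Sox7-deficient libraries, against 52.9 and 49.3 CPM in Sox7 controls (log2 fold change 2.09, SE 0.79; edgeR adjusted p = 1). Fabp5, a fatty acid binding protein that can carry retinoic acid, was at 488 and 9.56 CPM in Sox7-deficient libraries, against 21.4 and 8.20 CPM in Sox7 controls (log2 fold change 4.07, SE 2.01; edgeR adjusted p = 1). Both were highest in Sox7-deficient 1, where macrophage markers summed to 18954 CPM. Without that library the log2 fold change was 0.35 for Lrp1 and −0.66 for Fabp5. The part of macrophage transcripts in the Lrp1 and Fabp5 values was not tested. Ncoa2, a coactivator of nuclear receptors, was at 5.48 and 5.18 CPM in Sox7-deficient libraries, against 11.7 and 32.2 CPM in Sox7 controls. Its groups did not overlap, and its log2 fold change of −2.04 (SE 1.02; edgeR adjusted p = 1) was −2.10 without Sox7-deficient 1 and −1.14 without Sox7 control 2.

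In the Sox17 comparison Ep300, an acetyltransferase coactivator, had the smallest p of the list among genes with 1 direction in all 3 sets. It averaged 25.3 ± 16.3 CPM in Sox17-deficient libraries and 52.1 ± 22.3 CPM in Sox17 controls (SD, n = 3 each), with a log2 fold change of −1.04 (SE 0.60; edgeR adjusted p = 1). Rxrb, the paralog of Rxra, averaged 70.0 ± 29.8 CPM in Sox17-deficient libraries and 41.8 ± 19.4 CPM in Sox17 controls (SD, n = 3 each; log2 fold change 0.74, SE 0.48; edgeR adjusted p = 1). Tgm2, a transglutaminase gene induced by retinoic acid, was the most abundant gene of the pathway lists, at 886 ± 235 CPM in Sox17-deficient libraries and 594 ± 220 CPM in Sox17 controls (SD, n = 3 each; log2 fold change 0.58, SE 0.43; edgeR adjusted p = 1). Next in level were the corepressor gene Ncor1, with a mean of 257.8 CPM over the 10 libraries, and Bhlhe40, with 165.4 CPM. Of the 33, 2 were higher in both Sox7 sets and lower in all 3 Sox17 sets, Fabp5 and Rdh11 (the second named after its values were seen), as were 2.19% of all genes. The opposite pattern was that of 1 of the 33, Rxrb, and of 3.08% of all genes.

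**Figure D4:**
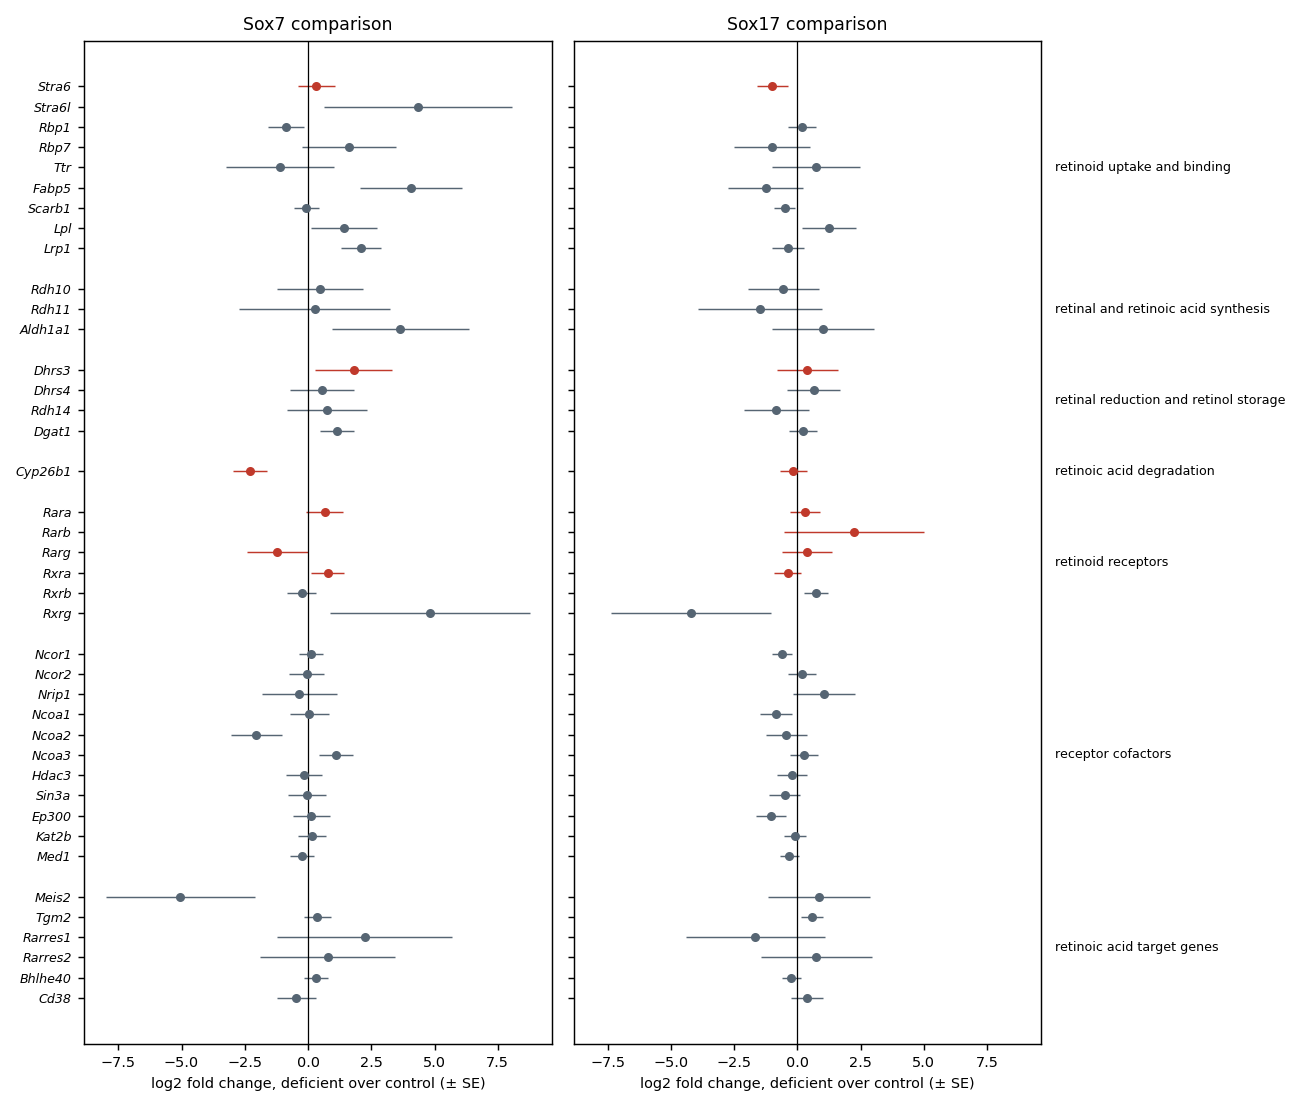
Log2 fold change of deficient over control, with its SE, for the tested retinoid pathway genes in the Sox7 (left) and Sox17 (right) comparison, grouped by role, with the 7 genes described here in red. Rarb on the left and Stra6l on the right are left out, since a group with 0 counts gives no fold. Cyp26b1 stands at −2.31 on the left and −0.15 on the right.

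The most abundant of the 7 genes differed between groups. By group mean it was Rxra in Sox7-deficient libraries (83.5 ± 2.60 CPM) and Cyp26b1 in Sox7 controls (142 ± 84.8 CPM; SD, n = 2 each). It was Rara in Sox17-deficient libraries (39.4 ± 5.55 CPM) and Stra6 in Sox17 controls (57.7 ± 33.6 CPM; SD, n = 3 each), where Cyp26b1 lay within these spreads or its own at 32.6 ± 18.4 CPM and 36.2 ± 14.2 CPM. Rarb had the lowest mean in all 4 groups. The genes whose log2(CPM + 1) profile over the 10 libraries lay closest to that of Cyp26b1, by the root-mean-square difference after centring each gene on its mean, were Snhg11 (0.46), Slc5a11 (0.46), Klhl35 (0.46), 4921507P07Rik (0.48) and Arhgap27 (0.48), against a median of 1.27 over 13039 genes. The first 4 had mean levels of 0.729 to 1.18 CPM, so their profiles rest on few counts. Arhgap27, a GTPase-activating protein gene at 102.9 CPM, was at 69.3 and 108.7 CPM in Sox7-deficient libraries, against 94.3 and 291.4 CPM in Sox7 controls. A gene that did not vary would lie at 0.97, the spread of Cyp26b1 about its own mean. Of the other 6 genes only Rarb (0.81, rank 478) was nearer than that, and the other 5 lay at 1.04 (Rxra) to 1.84 (Rarg).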

How the data were processed

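RNA of purified tumour endothelial cells was read as 3′ tags in 10 libraries. The authors deposited raw, unnormalised counts per gene symbol, 1 file per library, which were used as deposited. Bowtie2, edgeR and mouse build mm10 are named, with no role, per the submitters' processing notes. The annotation, counter and strand setting are not given in the sources used here. No molecular identifiers are mentioned, so floors cover counting error only.

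From these counts, repeated symbols were summed and 1183 Mir symbols found only in the Sox17 files were left out. All 10 libraries were fitted together in R 4.3.3 with edgeR 4.0.16 (quasi-likelihood F-test, robust dispersions, a mean per group, 6 residual degrees of freedom), after TMM scaling (trimmed mean of M-values) and filterByExpr, which removed 10198 symbols. P-values were adjusted after Benjamini and Hochberg over 13040 genes, with a threshold of 0.05. Each SE is the log2 fold change over the root of its F. CPM use the TMM-scaled library size. DESeq2 1.42.0 and limma-voom (limma 3.58.1) were alternatives, beside DESeq2 size factors, no filter, the arm alone, the Rn45s row (ribosomal RNA precursor) left out, a replicate block and each library left out. Replicate numbers were taken to pair deficient and control libraries, since both libraries of a set share a number label in 4 sets of 5, all but Sox17 set 1. The main fit did not use this pairing, so its errors leave it out, and only the replicate block took it in. With that block Cyp26b1 was at −2.17 (SE 0.58) in the Sox7 and −0.22 (SE 0.45) in the Sox17 comparison. Deviations from group means correlated over genes at 0.193 in the Sox7 arm (one value for both sets), and at 0.12, 0.0911 and 0.0896 in Sox17 sets 1, 2 and 3.

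The 7 genes and all gene lists were chosen with earlier results of these data known. Named pathway genes were those past the threshold, the 3 with the smallest p and 1 direction in every set of a comparison, paralogs of the 7, and the 3 with the highest mean level. Gene positions are from GENCODE vM21 (GRCm38, the assembly also called mm10), and upstream sequences from RefSeq on GRCm38.p6.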

Additional observations from a re-analysis of the deposited data

Results flagged for a closer look

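Fabp5 and Rxrb were in opposite directions in the 2 arms in every set. Fabp5 was higher in both Sox7-deficient libraries and lower in all 3 Sox17-deficient libraries than in their controls, a pattern of 2 of the 33 other pathway genes (with Rdh11) and of 2.19% of the genes tested, and its Sox7 difference minus its Sox17 difference was 5.32 (SE 2.47; edgeR adjusted p = 1.00 over all genes). Without Sox7-deficient 1, which held 18954 CPM of macrophage markers, that value was 0.59, and without a filter on low counts it was 5.29 with an edgeR adjusted p of 4.55e-06. The part of macrophage transcripts in the Fabp5 values was not tested. Rxrb was lower in both Sox7-deficient libraries (70.3 and 65.0 CPM, against 90.0 and 71.3 CPM in Sox7 controls) and higher in all 3 Sox17-deficient libraries (50.3, 55.4 and 104.3 CPM, against 20.9, 45.2 and 59.3 CPM in Sox17 controls), a pattern of 3.08% of genes. Its difference between arms was −0.99 (SE 0.76), which did not pass the test (edgeR adjusted p = 1.00).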

How the results depend on the processing

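The Sox7 values of the 7 genes moved by less than the spread between replicates in 111 of 119 alternatives. These include fits without a Sox17-arm library, which could hardly change a Sox7 value. A move within that spread could still change the sign, as for Stra6, at 0.33 in the main fit and −0.39 without Sox7-deficient 2. Cyp26b1 stayed between −2.33 and −2.17 in all alternatives that kept every Sox7-arm library. Its Sox7 minus Sox17 difference was −1.95 with the replicate block and ran from −2.67 to −1.37 with a library left out, the last without Sox7 control 2. In the Sox17 comparison 111 of 118 values kept their sign, fits without a Sox7-arm library included, and all stayed short of the threshold. The other 7 were Rarg with limma-voom (−0.021), Dhrs3 with limma-voom (−1.40) and with the replicate block (−0.11), and values with a library left out, whose ranges were −0.70 to 0.14 for Cyp26b1, −1.32 to 7.15 for Rarb and −0.033 to 0.92 for Dhrs3. The Sox7 value of Fabp5 ran from −0.66 to 5.04. Over all genes the Sox7 comparison called 58 without a filter, 3 with DESeq2, 1 with the replicate block and 0 to 14 with a library left out (14 without Sox7-deficient 1), and the Sox17 comparison 30, 29, 6 and 0 to 1. Of the other pathway genes 1 was called in the Sox7 comparison without a filter. The replicate block changed no call among the pathway genes. The causes were not tested. Depth limits Rarb, whose 3-count floor was 0.0847 to 1.36 CPM.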

Other observations

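Some paralog transcripts came mostly from 1 or 2 libraries. Cyp26a1, a retinoic acid hydroxylase gene, had 46 of its 47 counts in Sox17 control 2 (3.63 CPM) and 1 in Sox7 control 1. Rxrg, a retinoid X receptor gene, had 34 of its 59 counts in the same Sox17 control 2 (2.69 CPM) and 23 in Sox7-deficient 1 (3.32 CPM). Rarb had 160 of its 203 counts in Sox17-deficient 2, the deepest library.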
